A study of Rattus norvegicus with 6 samples.

Results

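The transcripts described here are the expressed long non-coding RNAs of rat bone marrow mesenchymal stem cells. They are the rows of the deposited expression table with the biotype lincRNA, antisense or processed_transcript and a mean of at least 1 FPKM (fragments per kilobase, adjusted for library size) over 6 libraries. 158 of the table's 33589 rows met this rule, of which 123 were lincRNAs, 27 processed transcripts and 8 antisense RNAs. The members were therefore chosen by their biotype and by their own mean FPKM. Their level is given as a description, while the difference between the groups was not used in the choice. In 3 libraries the cells had been held in stiff SA hydrogel of 18 kPa, and in the other 3 in soft SA hydrogel of 2 kPa, both for 48 h. All were made from polyA RNA of cells taken back out of the gel. The design text speaks of quadruplicates, and 3 libraries per group were analysed here. The sources used here do not say whether the libraries of a group came from separate cultures or animals. The p-values therefore cover the spread between these libraries alone, and that spread may be technical.

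Long non-coding RNAs are transcripts that are processed much like messenger RNAs but are not known to encode a protein. Many start close to a protein-coding promoter and run away from it, others lie across a gene on the opposite strand, and others stand alone between genes. They are known for acting in the nucleus on chromatin and on nuclear bodies, for hosting small nucleolar RNAs and microRNAs, and, in many cases, for no established role.

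The libraries held between 14966354 and 16711527 reads, recovered from FPKM and gene length, and 3 reads on a gene of 1 kb were worth 0.179 to 0.201 FPKM. Mitochondrial genes took 2.15% of the reads in soft replicate 1 and 2.85% to 3.33% in the other libraries. Of 16 markers of mesenchymal stem cells that were tested, 1 passed in the higher direction (Vim, the intermediate filament vimentin), against 1.01% of all rows. The difference was above 0 in 13 of them and below 0 in 3. Thy1, a surface marker of these cells, stood at 599 ± 34.7 FPKM in stiff and 499 ± 28.4 FPKM in soft gel (SD, n = 3 each). It did not pass (limma adjusted p = 0.115). Markers of leukocytes and macrophages were also present. Of 11 tested, Adgre1 was called higher and Cd68 and Cd53 were called lower, against 1.01% of all rows higher and 0.425% lower. In these 11 the difference was below 0 in 8 and above 0 in 3. The list's summed level was 389 to 417 FPKM in stiff and 441 to 447 FPKM in soft gel, with no overlap. Its most abundant gene was Lyz2, at 119 FPKM in stiff and 149 FPKM in soft gel (limma adjusted p = 0.0606). Adgre1 went the other way, at 84.9 FPKM in stiff and 69.0 FPKM in soft gel. The T-cell marker Cd3e was at 0 in every library. The summed endothelial markers were at 3.67 to 4.34 FPKM in stiff and 4.41 to 5.58 FPKM in soft gel, with Cldn5 at 0 throughout. Most of that sum was Esam, the only gene of the list that was tested. It stood at 2.71 ± 0.455 FPKM in stiff and 3.39 ± 0.404 FPKM in soft gel (SD) and was not called (limma adjusted p = 0.404). The erythroid markers summed to less than 1 FPKM in each library, with 3 of them at 0. Of 10 neural and glial markers 3 were tested and 0 were called, against 1.43% of all rows. Among these, S100b stood at 64.2 FPKM in stiff and 61.8 FPKM in soft gel (limma adjusted p = 0.631). Tubb3 stood at 4.05 and 2.79 FPKM (limma adjusted p = 0.229), and Snap25 at 4.45 and 4.76 FPKM (limma adjusted p = 0.824). The part of these cell types in the differences below was not tested, and in bulk RNA fewer cells of a type and less RNA per cell cannot be told apart.

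Promoter windows were taken for members with a RefSeq long non-coding RNA name. The windows shown are those of the most abundant such member (LOC102549726), of the RefSeq-named member with the largest stiff minus soft difference (LOC102553018) and of Tug1, the only member from a list of well-known long non-coding RNAs. Each runs from 250 bases before to 50 bases after the RefSeq start, on the RefSeq assembly GRCr8, written 5′ to 3′ along the gene. The windows lie at chr20:3880958-3881257 on the plus strand for LOC102549726, at chr2:237225471-237225770 on the plus strand for LOC102553018 and at chr14:82750485-82750784 on the minus strand for Tug1. Capitals mark matches, on either strand, to the TATA box letters TATAAA, the CAAT box letters CCAAT, the GC box letters GGGCGG and the ETS core letters CGGAAG. In the LOC102553018 window the reverse-strand match TTTATA directly follows the reverse-strand match CCGCCC, so that both appear as a joined run of capitals.
LOC102549726: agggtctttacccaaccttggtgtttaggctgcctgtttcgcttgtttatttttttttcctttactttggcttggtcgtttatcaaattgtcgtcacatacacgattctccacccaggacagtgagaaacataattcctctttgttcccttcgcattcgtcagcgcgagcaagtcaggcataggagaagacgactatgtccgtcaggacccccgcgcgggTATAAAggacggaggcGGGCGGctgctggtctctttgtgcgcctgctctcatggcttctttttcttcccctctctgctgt
LOC102553018: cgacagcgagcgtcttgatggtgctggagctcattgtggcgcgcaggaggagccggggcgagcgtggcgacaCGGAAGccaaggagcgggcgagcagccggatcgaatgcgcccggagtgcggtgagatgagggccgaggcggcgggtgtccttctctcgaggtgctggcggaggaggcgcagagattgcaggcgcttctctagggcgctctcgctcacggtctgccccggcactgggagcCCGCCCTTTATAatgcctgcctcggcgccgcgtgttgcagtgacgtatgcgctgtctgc
Tug1: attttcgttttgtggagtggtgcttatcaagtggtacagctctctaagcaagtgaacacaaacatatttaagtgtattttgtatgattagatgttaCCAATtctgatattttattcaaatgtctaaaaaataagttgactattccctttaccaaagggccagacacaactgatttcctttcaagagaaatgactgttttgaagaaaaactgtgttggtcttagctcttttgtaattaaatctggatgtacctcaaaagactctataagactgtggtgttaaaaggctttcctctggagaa

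These windows differed in base composition. The LOC102553018 window held 35 CpG pairs, the LOC102549726 window 17 and the Tug1 window 1, against a median of 7 over all 33469 RefSeq promoter windows of the same length. TATAAA was found in the windows of LOC102549726 and LOC102553018 and in 14.2% of all windows. GGGCGG was also found in both and in 33.1% of all windows. CGGAAG was found in the LOC102553018 window and in 16.6% of all, and CCAAT in the Tug1 window and in 37.5% of all. LOC102549726 lies on the minus strand in the deposited table and on the plus strand in GRCr8, so its window is that of the RefSeq gene of this name. All windows follow the RefSeq starts, and whether these cells use those starts was not tested.

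The members were low in level. Their median was 2.61 FPKM, against 10.1 FPKM for all 12713 rows at or above 1 FPKM and 11.3 FPKM for the 11419 protein-coding ones. By biotype, the medians were 2.18 FPKM for lincRNAs, 2.96 FPKM for antisense RNAs and 6.32 FPKM for processed transcripts. 64 members lay under 2 FPKM, 117 under 5 FPKM and 20 at or above 10 FPKM. The median member had 50 reads in a library, against 391.5 for all rows tested, and 17 members had a median under 10 reads. The members were also short, with a median length of 987.5 bases against 2190 bases. Just inside the threshold stood AABR07017266.1 at 1.06, AC107174.2 at 1.05 and AABR07001634.1 at 1.04 FPKM, and just outside it stood AABR07021503.1 at 0.982, AABR07008256.1 at 0.974 and AABR07044049.1 at 0.974 FPKM.

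**Figure D1:**
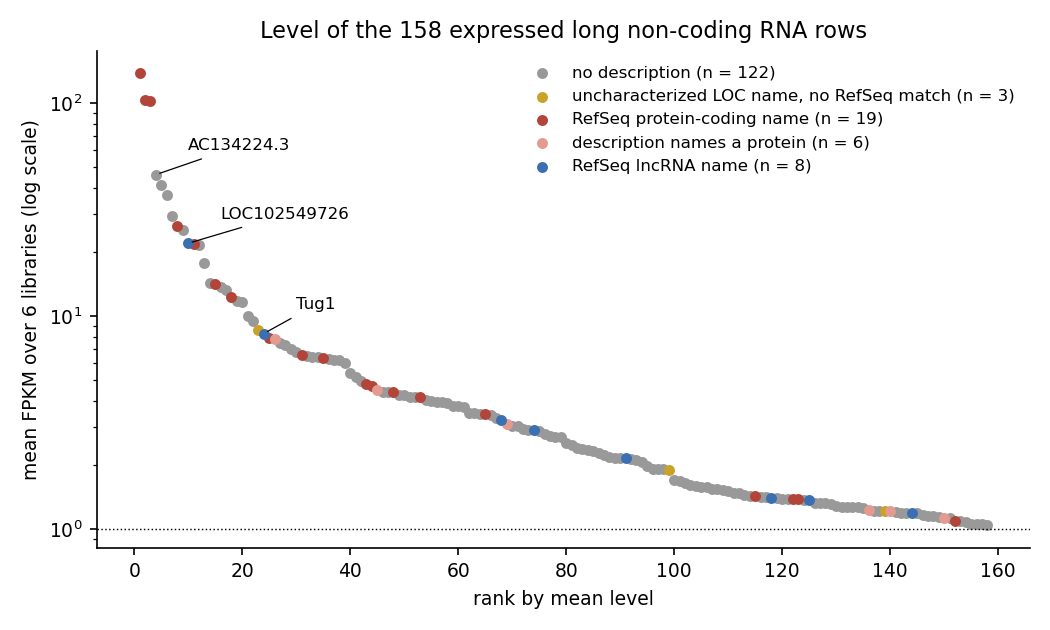
Mean FPKM over 6 libraries (log scale) of each of the 158 members against its rank, coloured by what its name or description says. The 3 points above 100 FPKM carry protein-coding names, and most points below are rows with no description (122 of 158).

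Some of the most abundant rows go against the label of a non-coding RNA. 19 members, 16 of them processed transcripts, carry the symbol or NCBI gene ID of a RefSeq protein-coding gene, and 6 more have a description that names a protein. Those 19 rows held 74.4% of all reads on members, and 3 of them held 50.4%. The 3 are Itgb5, an integrin subunit that binds matrix, Snx3, a sorting nexin of endosomal recycling, and AABR07068316.1, which matched by gene ID to Col6a3, a chain of collagen VI. The others with higher levels include Arid5b and Top2b, a chromatin regulator and a DNA topoisomerase, Trrap, a scaffold of histone acetyltransferase complexes, and Smg1, a kinase of nonsense-mediated decay. The reads on these rows cannot be told apart from reads of the protein-coding messages. Of the remaining members, 8 carry a RefSeq long non-coding RNA name and 122 have no description at all.

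Itgb5 stood at 147, 137 and 148 FPKM in stiff gel, against 148, 121 and 126 FPKM in soft gel. The groups overlapped, with a log2 difference of 0.14 ± 0.082 (SE, adjusted p = 0.478). Snx3 had 103, 105 and 111 FPKM in stiff gel, against 87.7, 108 and 105 FPKM in soft gel, and overlapped as well (0.09 ± 0.085, adjusted p = 0.679). The row matched to Col6a3, AABR07068316.1, had 96.1, 94.6 and 84.9 FPKM in stiff gel, against 119, 110 and 111 FPKM in soft gel. All 3 stiff values lay under all 3 soft values, and the difference of -0.30 ± 0.066 missed the threshold of 0.05 (adjusted p = 0.0861). Arid5b, at 26.4 ± 2.63 FPKM in stiff and 26.5 ± 1.85 FPKM in soft gel (SD, n = 3 each), differed by -0.01 with a sign that flips between settings, and Top2b by 0.04.

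Across all 12713 rows tested with limma on log2(FPKM + 1), 1.01% were called higher in stiff gel and 0.425% lower at an adjusted p under 0.05, or 1.43% in either direction. Among the 158 members, 0 were called higher and 1 lower, the lincRNA AC134224.1. At an unadjusted p under 0.05, 6 members were higher and 20 lower, against 8.46% higher and 6.95% lower of all rows. In 7 members every stiff library lay above every soft one and in 24 below, against 11.7% and 10.9% of all rows. The median log2 difference of the members was -0.10, with quartiles of -0.25 and 0.08, against a median of 0.00 over all rows and -0.02 over all rows under 5 FPKM. The difference was below 0 in 106 members, or 67.1%, against 49.6% of all rows. Under 5 FPKM it was below 0 in 83 of 117 members, or 70.9%, against 54.5% of all rows at that level. Among all members it was below 0 in 99 to 105 on leaving out a library, with the fewest without soft replicate 3, and in 100 after quantile normalization. Because the mean over both groups chose the members, a member can have passed through its higher group: 146 had at least 1 FPKM in both groups, 8 had a stiff mean under 1 FPKM and 4 had a soft mean under 1 FPKM. Without the 25 rows whose name or description is that of a protein, 91 of 133 differences were below 0.

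**Figure D2:**
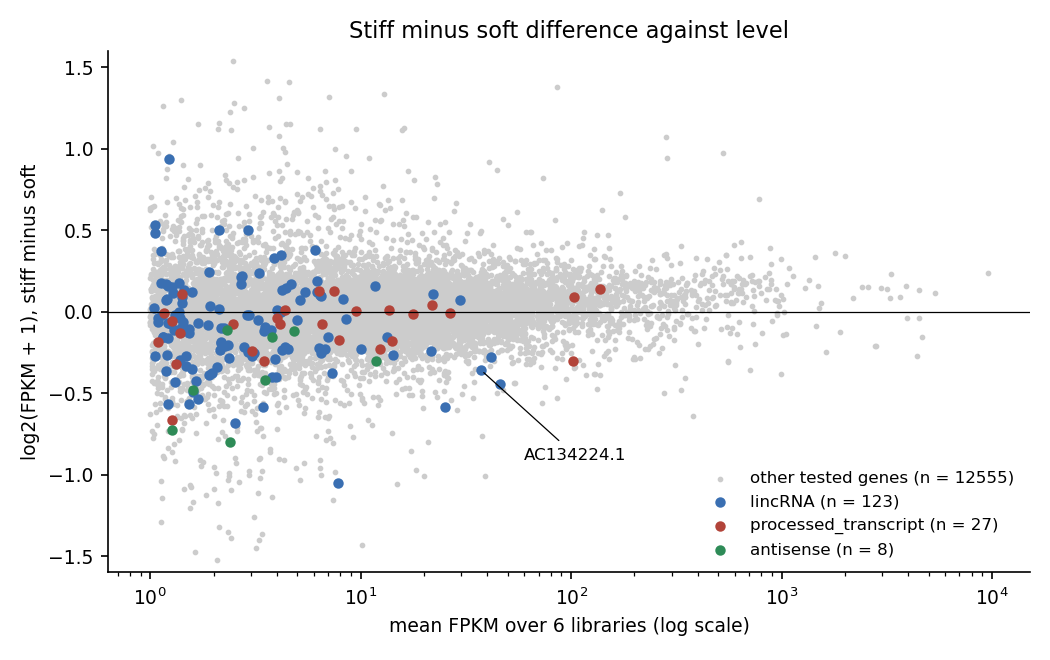
Stiff minus soft difference in log2(FPKM + 1) against mean FPKM (log scale) for the members by biotype, over the other 12555 rows tested in grey; 19 of those lie outside the plotted range. All 8 antisense members lie below 0, and the line leads to AC134224.1, the member that was called.

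The share of all reads that fell on members was 0.346%, 0.343% and 0.326% in stiff gel, against 0.383%, 0.371% and 0.370% in soft gel. The groups did not overlap, and the stiff mean was 0.903 times the soft mean. A few rows carried much of this gap. Without the row matched to Col6a3 the ratio was 0.955, and without it and the AC134224 rows described next it was 0.970. For the 139 members without a RefSeq protein-coding name the ratio was 0.899, and 0.931 when the AC134224 rows were left out.

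AC134224.1, AC134224.2 and AC134224.3 are lincRNAs without a description that lie on the minus strand of chromosome 1, within 6966 bases. Frmd8, a cofactor of the shedding protease machinery, lies on the same strand beyond them. AC134224.1 (ENSRNOG00000062127) spans 221154561 to 221156910 in the coordinates of the deposited table, whose build is not named, and has no exon gap, since its length of 2350 bases equals its span. It had 31.3, 34.1 and 32.0 FPKM in stiff gel, against 40.2, 41.8 and 43.6 FPKM in soft gel. Every stiff library was lower than every soft one. AC134224.1 fell by 0.36 ± 0.059 on the log2 scale (SE, adjusted p = 0.0404), with a ratio of means of 0.775, on 1096 to 1668 reads a library. The difference itself lay between -0.33 and -0.39 on leaving out a library. The call was kept without soft replicate 1 (adjusted p = 0.0426) and was lost on leaving out any other library, with adjusted p of 0.163, 0.0834 and 0.162 without stiff replicate 1, 2 or 3 and of 0.134 and 0.181 without soft replicate 2 or 3. It was also lost without a level filter (0.0684), without the variance trend (0.0799) and with a replicate block (0.0670), each with the same difference of -0.36. It was kept with a pseudocount of 0.1 (0.0408), at 3 FPKM (0.0323), with array weights (0.0052), with voom (0.0181), after quantile normalization (0.0438) and with equal FPKM sums (0.0281).

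The flanking rows of the cluster had the same direction. AC134224.3 had 37.4, 43.2 and 36.4 FPKM in stiff gel, against 50.3, 57.2 and 52.3 FPKM in soft gel, a difference of -0.44 ± 0.082 (adjusted p = 0.0549). AC134224.2 had 19.4, 20.5 and 19.4 FPKM in stiff gel, against 39.4, 27.6 and 25.1 FPKM in soft gel, a difference of -0.58 ± 0.152 (adjusted p = 0.134). Neither passed, and in both every stiff library was below every soft one, with soft replicate 1 standing high in AC134224.2. Without that library the AC134224.2 difference was -0.40 (adjusted p = 0.0565). Summed over the 3 rows, the cluster took 0.0113%, 0.0125% and 0.0114% of all reads in stiff gel, against 0.0158%, 0.0160% and 0.0158% in soft gel. The rows share their surroundings and libraries and are not independent of each other.

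Other genes of the region were read from the same fit. Frmd8 stood at 23.7 ± 1.72 FPKM in stiff and 24.5 ± 0.497 FPKM in soft gel (SD, n = 3 each), a log2 difference of -0.05. Ltbp3, a binding protein of latent TGF-beta, differed by -0.11. An unannotated transcript of the plus strand, 30898 bases beyond the first base of the cluster, had 4.38 ± 0.915 FPKM in stiff and 5.82 ± 0.845 FPKM in soft gel (SD, n = 3 each). Its groups overlapped, and its difference of -0.35 ± 0.150 did not pass (SE, limma adjusted p = 0.329).

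**Figure D3:**
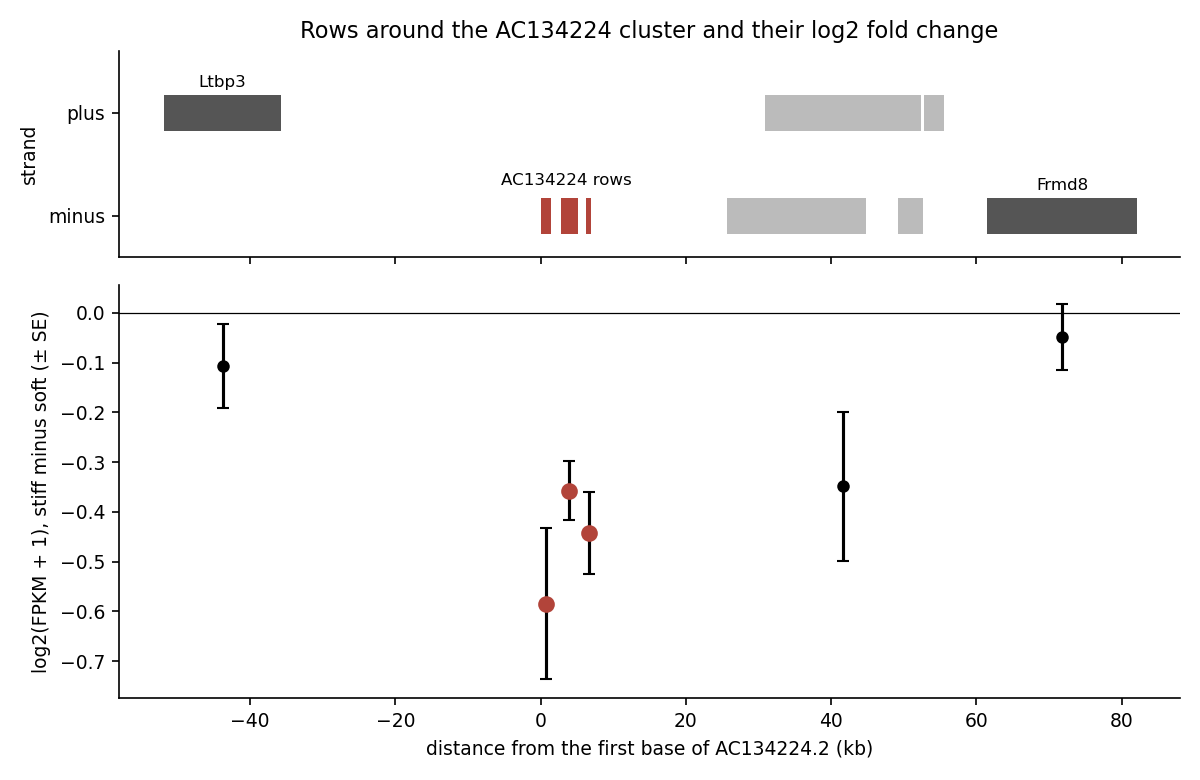
Upper panel, rows on the plus and minus strands by distance in kb from the first base of AC134224.2, with members in red, the protein-coding genes Ltbp3 and Frmd8 in dark grey and unannotated transcripts in light grey. Lower panel, stiff minus soft difference in log2(FPKM + 1) with its SE (n = 3 per group) at the middle of each tested row; the 3 AC134224 rows lie between -0.58 and -0.36, and Ltbp3 and Frmd8 at -0.11 and -0.05.

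All 8 antisense RNAs had a difference below 0, with a median of -0.36, against 49.6% of all rows and 54.5% of those under 5 FPKM below 0. None passed adjustment (0 of 8 in limma), and 3 had an unadjusted p under 0.05, against 6.95% of all rows in this direction. AC108572.2, 1 of the 3, passed the level threshold only through its soft libraries. AABR07061839.1 lies across March8, a membrane-bound ubiquitin ligase, and had 0.682, 1.73 and 2.12 FPKM in stiff gel, against 2.42, 4.18 and 3.28 FPKM in soft gel. The groups did not overlap (-0.80 ± 0.256, adjusted p = 0.208, 4 to 27 reads), while March8 itself differed by 0.03. AC108572.2 lies across Zfp57, a zinc finger protein that guards imprinted methylation, and had 0.961, 0.591 and 0.570 FPKM in stiff gel, against 2.13, 2.04 and 1.32 FPKM in soft gel. These groups did not overlap either (-0.72 ± 0.173, adjusted p = 0.112, 4 to 15 reads), but since its stiff mean was 0.707 FPKM it was chosen through the higher group. Its difference was -1.26 with a pseudocount of 0.1 and -1.32 with voom, and Zfp57 differed by -0.13. AC114233.1 lies across Ccl3, a chemokine made by macrophages, and had 1.18 ± 0.352 FPKM in stiff and 2.02 ± 0.300 FPKM in soft gel (SD, n = 3 each; adjusted p = 0.225), while Ccl3 differed by 0.07. AABR07037436.1, also of this class, matched by gene ID to the protein-coding gene Vcf2 and differed by -0.12. The sources used here do not say how strand was treated in the counting, so reads of these rows and of the genes they lie across cannot be told apart. Over the 5 antisense members other than these first 3 the differences ran from -0.42 for AC120237.2, across Arl2, to -0.11 for AC141377.1, across Arr3.

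The RefSeq-named long non-coding RNAs varied in both directions. Tug1, a nuclear and cytoplasmic RNA that has been linked to Polycomb repression, had 8.29, 8.88 and 8.38 FPKM in stiff gel, against 7.29, 8.77 and 8.05 FPKM in soft gel. The groups overlapped (0.08 ± 0.081, adjusted p = 0.708) on 627 to 736 reads. LOC102549726, whose interval holds 2 small nucleolar RNA rows on its own strand, had 22.7, 20.8 and 24.8 FPKM in stiff gel, against 19.9, 24 and 19.5 FPKM in soft gel. Its groups overlapped as well (0.11 ± 0.099, adjusted p = 0.661). The 2 small RNA rows averaged 0.320 and 0 FPKM. The interval also overlaps RT1-CE7, a protein-coding row on the same strand at a mean of 10.3 FPKM. Whether reads of LOC102549726 and RT1-CE7 were told apart was not tested. LOC102553018 had 3.27, 3.65 and 3.86 FPKM in stiff gel, against 2.03, 2.76 and 2.01 FPKM in soft gel. Here every stiff library was above every soft one, with a difference of 0.50 ± 0.122 that missed the threshold (adjusted p = 0.117). Kantr, a long non-coding RNA beside Kdm5c, had 1.89 ± 0.606 FPKM in stiff and 2.41 ± 0.725 FPKM in soft gel (SD, n = 3 each; adjusted p = 0.646).

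Of the lincRNAs without a description, AABR07035722.1 on chromosome 12 had 2.71, 2.1 and 2.83 FPKM in stiff gel, against 3.72, 4.51 and 4.69 FPKM in soft gel. The groups stood apart (-0.58 ± 0.123, adjusted p = 0.0799). AC239701.4, a processed transcript of chromosome Y, had 0.481, 1.11 and 0.642 FPKM in stiff gel, against 1.64, 1.17 and 2.57 FPKM in soft gel, on 6 to 35 reads (-0.66 ± 0.224, adjusted p = 0.226). It passed the level threshold only through soft gel, and its difference was -1.16 with a pseudocount of 0.1 and -1.24 with voom. AABR07002969.1, the fifth of the members by level, averaged 37.3 ± 4.91 FPKM in stiff and 45.5 ± 7.25 FPKM in soft gel (SD, n = 3 each; adjusted p = 0.377), and AABR07019209.1 averaged 30.3 ± 2.69 FPKM in stiff and 28.8 ± 1.70 FPKM in soft gel (adjusted p = 0.740).

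Among the members with every stiff library above every soft one, AABR07072236.1 had 6.52, 7.32 and 6.98 FPKM in stiff gel, against 4.13, 5.62 and 5.70 FPKM in soft gel (0.38 ± 0.118, adjusted p = 0.198). It overlaps Gramd1c on the opposite strand, a row at a mean of 0.603 FPKM, and lies 478 bases from Mir568, a microRNA gene on the same strand. The Mir568 row, 96 bases long, had 17.5, 12.2 and 21.8 FPKM in stiff gel, against 8.69, 13.4 and 12.2 FPKM in soft gel, with overlap. AC107174.2 had 1.23, 1.78 and 1.25 FPKM in stiff gel, against 0.467, 0.478 and 1.12 FPKM in soft gel, on 3 to 11 reads (0.53 ± 0.195, adjusted p = 0.261). It passed the level threshold only through stiff gel, and its difference was 1.02 with a pseudocount of 0.1, 1.04 with voom and 0.28 with array weights. It is a lincRNA that diverges from Thy1 at a distance of 2302 bases, and Thy1 differed by 0.26 (adjusted p = 0.115). AABR07065531.5 averaged 2.15 ± 0.033 FPKM in stiff and 1.67 ± 0.103 FPKM in soft gel, and AABR07054460.4 averaged 3.0 ± 0.367 FPKM in stiff and 2.45 ± 0.463 FPKM in soft gel (SD, n = 3 each; adjusted p = 0.316 and 0.486).

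**Figure D4:**
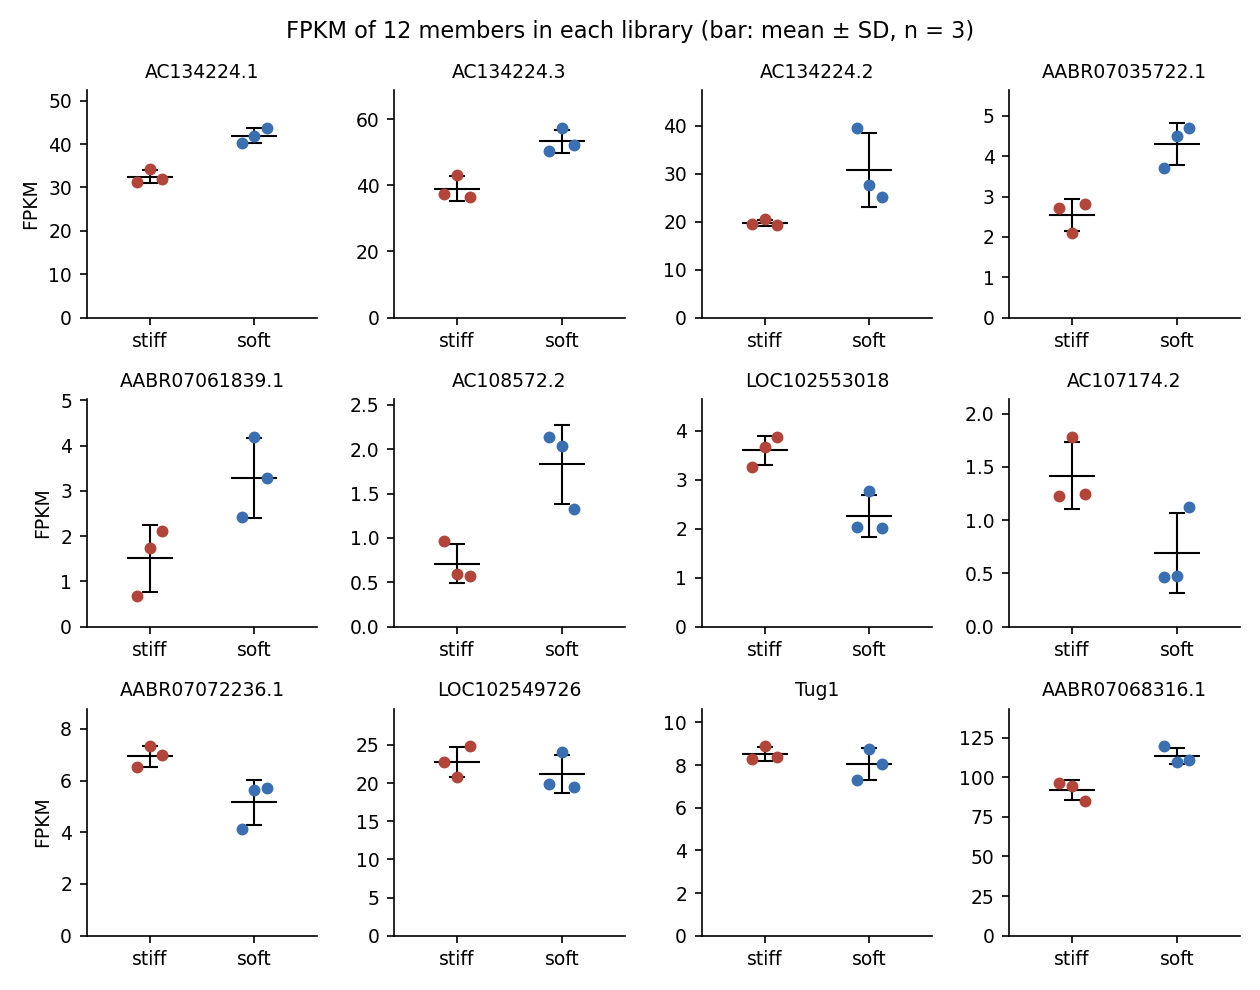
FPKM in each library for 12 members, with 3 stiff libraries on the left and 3 soft ones on the right of each panel, each axis starting at 0; horizontal bars are means and error bars SD (n = 3). In the panels of Tug1 and LOC102549726 the groups overlap, and in the other 10 panels they do not.

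The members with most variation within groups were LOC100912578, AC141521.1 and LOC103690095. LOC100912578, a row described as a mitochondrial stress-70 protein-like gene, had 11.4, 5.52 and 0.430 FPKM in stiff gel, against 4.77, 12.4 and 12.3 FPKM in soft gel. AC141521.1 had 0.0818, 0.277 and 4.51 FPKM in stiff gel, against 4.77, 0.248 and 0.225 FPKM in soft gel. LOC103690095, described as TFG-like, had 0.144, 0.232 and 6.53 FPKM in stiff gel, against 0.0958, 0.0982 and 0.264 FPKM in soft gel, so that 1 library carried its level above 1 FPKM. The groups overlapped in each. The first and the last of these have descriptions that name a protein, and AC141521.1 has no description. Sequences were not compared and the source of the spread was not tested, so their counts are uncertain. The median ratio of variance to mean of the reads within groups was 2.18 for the 158 members and 2.81 for all rows tested. These sets differ in depth, with a median of 50 against 391.5 reads, so the ratios do not show that members vary less. On the tested log2 scale the median SE was 0.161 for members and 0.0944 for all rows.

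Some members lay close to protein-coding genes, counted here at any level of expression. The same share was not worked out for other rows, so closeness is not shown to be particular to the members. For 66 of 158 the nearest protein-coding row lay within 5 kb, for 42 within 1 kb, and 18 overlapped one. Among the 66, 18 were divergent, 14 overlapped on the opposite strand, 4 overlapped on the same strand, 12 had the neighbour downstream and 9 upstream on the same strand, and 9 were convergent. The divergent members had a median of 1.57 FPKM, against 12.1 FPKM for their neighbours, and in 17 of 18 pairs the neighbour was the more abundant. Such pairs included Tug1 and Morc2, an ATPase of chromatin silencing, 1505 bases apart, and LOC100909912 and Ncoa3, a nuclear receptor coactivator, 74 bases apart. They also included LOC102550036 and Picalm, a clathrin adaptor, 263 bases apart, LOC102547954 and Lig3, a DNA ligase, 164 bases apart, and AABR07030366.1 and Col1a1, the main collagen of these cells, 2497 bases apart. Col1a1 stood at 3320.4 FPKM over 6 libraries, and AABR07030366.1 averaged 2.91 ± 0.327 FPKM in stiff and 2.99 ± 0.683 FPKM in soft gel (SD, n = 3 each).

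The stiff minus soft difference of members and neighbours was set side by side. Of the 56 neighbours within 5 kb that were tested, 0 were called in either direction by limma, against 1.43% of all rows. The sign was shared in 35 of these 56 pairs and, about as often, in 37 of 58 pairs further apart. In the divergent pairs the sign was shared in 12 of 18, in the pairs overlapping on opposite strands in 6 of 11, and in those with the neighbour downstream on the same strand in 8 of 12. The same libraries enter both members of a pair, and these counts have no test. Of 58 tested neighbours beyond 5 kb, 4 were called, all higher, against 1.01% of all rows, among them Slc38a4 and Slc1a4, amino acid transporters, and Grb14, an adaptor of insulin signalling. The nearest of these to its member was Slc38a4, at 9673 bases from AABR07058816.1, which itself differed by -0.12.

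**Figure D5:**
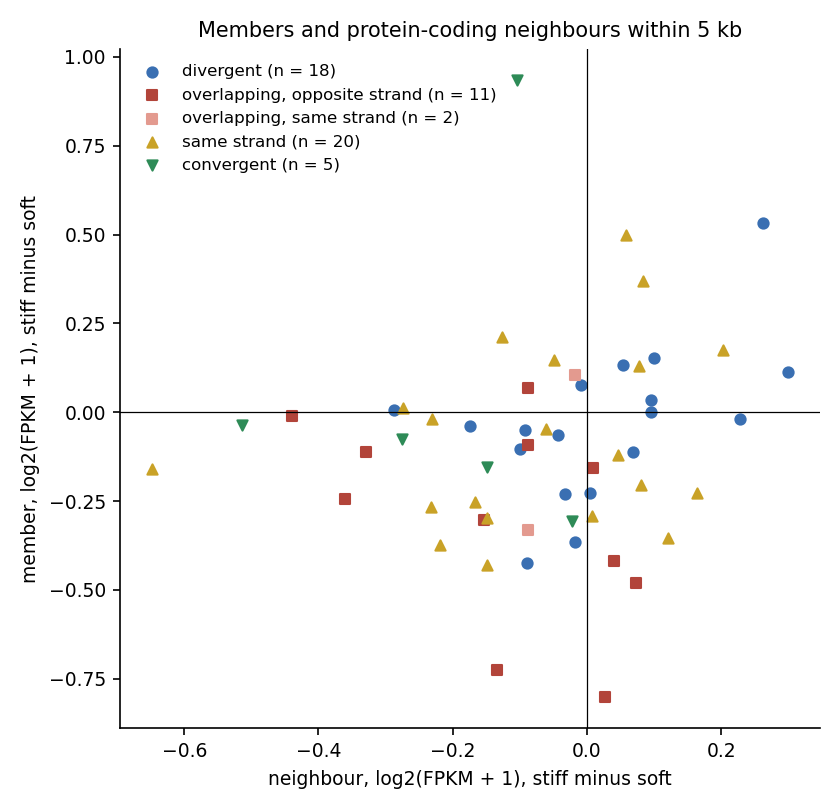
Stiff minus soft difference in log2(FPKM + 1) of each member (vertical) against that of its nearest protein-coding gene (horizontal), for the 56 pairs within 5 kb whose neighbour was tested, by orientation. Points fall in all 4 quadrants, and 35 pairs share a sign.

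Genes of pathways that make, hold or remove non-coding RNAs were read from the same fit, with Polycomb repressive complex 2 and imprinted genes beside them. The nonsense-mediated decay list is not separate from the members. It holds the member Smg1, a processed transcript, which is 1 of the 2 genes of that list counted below (limma unadjusted p = 0.0459). 0 were called in 10 paraspeckle proteins, 12 proteins of small nucleolar ribonucleoproteins, 14 of microRNA processing, 16 of nonsense-mediated decay, 16 of the nuclear exosome, 12 of Polycomb repressive complex 2 and 9 imprinted genes. At an unadjusted p under 0.05 the counts were 1, 2, 2, 2, 2, 3 and 1, against 15.4% of all rows in either direction and 1.43% after adjustment, and no list is singled out by them. Hnrnpk, an abundant RNA-binding protein of paraspeckles, stood at 172 ± 5.31 FPKM in stiff and 157 ± 18.1 FPKM in soft gel (SD, n = 3 each; adjusted p = 0.513). Ddx17, a helicase of microRNA processing, stood at 65.7 ± 3.93 FPKM in stiff and 78.7 ± 1.82 FPKM in soft gel (adjusted p = 0.0969). Of 70 names of known long non-coding RNAs looked up, 5 matched a row and 2 were tested; the other names were not analysed here.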

How the data were processed

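PolyA RNA of 6 libraries was measured, 3 in stiff and 3 in soft gel. The authors deposited 1 table of FPKM per gene, and no other expression table was used. Tools listed in the submitters' processing notes are HTSeq, Cufflinks 2.1.1 and Bowtie 0.12.9, with no role given. The same notes list mm10 and GRCm38, which are mouse builds, whereas the identifiers are those of rat and no build is stated in the table. Coordinates are printed as deposited. Some genes are not reported here. The sources used here do not state how strand or multiply mapped reads were handled.

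FPKM times gene length came out as whole multiples of a per-library step for 100.0% of values (tolerance 0.0001), which gave reads per gene. Rows with a mean of at least 1 FPKM were tested on log2(FPKM + 1), a scale that understates changes of low genes, with limma (version 3.58.1, R 4.3.3). The model held the group alone and a variance trend by intensity, tests were two-sided, and Benjamini-Hochberg adjustment ran over 12713 rows with a threshold of 0.05. The procedure was tested on simulated data, where with no change planted a few calls were made, all in rows shorter than any member. The simulated spread beyond counting was set to the same value for all rows and was not taken from the members. It therefore cannot show how often a member would be called falsely. An exact permutation test of 3 against 3 libraries was not used. Neighbours are the nearest protein-coding rows by the gap between intervals. RefSeq names were matched by symbol, synonym or gene ID for 28 members. Tables were made with Python 3.11.15, pandas 2.3.3 and matplotlib 3.10.9.

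The members and lists were chosen with earlier results of these data known. Named by rule were the called members, the 10 most abundant, the 5 largest rises and 5 largest falls with groups apart, members on the list of known long non-coding RNAs, the 3 rows on each side of the threshold and the 3 most variable members. The antisense class, neighbour pairs, RefSeq-named members and rows with protein names were added as classes, and examples within them were chosen after their values were seen. The alternatives tried are given in the closing section.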

Additional observations from a re-analysis of the deposited data

How the results depend on the processing

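Depth limits the low members: 17 had a median under 10 reads, and a group of 3 libraries is small. Over all rows, 128 were called higher and 54 lower. These counts were 71 and 21 without a level filter, where 20495 rows were tested, 85 and 27 without the variance trend, and 430 and 255 with array weights. With voom on recovered reads 127 rows were lower. Leaving out a library gave 19 to 116 higher and 7 to 43 lower. The member called lower became 0 without a filter or trend, 2 at 3 FPKM or with equal FPKM sums, 5 with array weights (and 1 higher), 4 with voom, and 0 to 1 on leaving out a library. AC134224.3 then passed at 3 FPKM (adjusted p = 0.0425), with equal sums (0.0452), array weights (0.0101), voom (0.0317) and a replicate block (0.0460). AABR07068316.1 passed with array weights (0.0316) and voom (0.0218), AABR07035722.1 with the same (0.0139 and 0.0352), and LOC102553018 with array weights (0.0427). The median member difference was -0.139 with a pseudocount of 0.1, -0.133 with equal sums, -0.0738 after quantile normalization, -0.160 with voom, and -0.108 to -0.0658 on leaving out a library. At 3 FPKM 45 of 71 differences were below 0. Signs turned for AABR07001634.1 (-0.000357 with equal sums, -0.0545 with array weights, -0.0840 to 0.0852 on leaving out a library), Arid5b (0.0476 with array weights, -0.0592 to 0.0713), AC141521.1 (0.395 with array weights, -0.814 to 0.670) and Snx3 (-0.00692 to 0.145). The pseudocount of 0.1 and voom also moved LOC103690095 (0.93) to 1.75 and 2.14 and AABR07017266.1 (0.48) to 0.93 and 0.92, and voom moved LOC100912578 (-1.05) to -1.64. Without stiff replicate 3, LOC103690095 was at 0.05 and LOC100912578 at -0.17. Neighbours counted 42 within 1 kb, 100 within 20 kb and 35 between starts. At 2 FPKM there were 94 members. Other causes of these changes were not tested.

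Same-numbered libraries did not deviate together (correlations of 0.055, 0.116 and -0.078 over genes), so the numbers were not taken to pair the samples. The replicate block gave 78 rows higher and 27 lower.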
